A study of Mus musculus with 14 samples.

Results

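Barrier lipid and cornification genes are described here in whole paws of newborn mice that are null for Krt9 or wild type (WT). The set was chosen by name, as 35 genes of ceramide and acylceramide synthesis, lipid export, the lipoxygenase pathway, lipid hydrolysis, transglutamination, proteolysis and late keratinocyte proteins that lie outside the epidermal differentiation complex. Each of the 35 symbols matched 1 of the 56691 gene rows, and all 35 passed the filter on low counts that left 21619 genes for testing. Krt9 encodes a keratin of palm and sole epidermis. The groups were Krt9-/- paws at postnatal day 3 (P3, n = 3), WT paws at P3 (n = 5), Krt9-/- paws at postnatal day 0 (P0, n = 2) and WT paws at P0 (n = 4), with both sexes in each group. The labels state neither the type of allele and the strain nor how many animals a library holds, so p-values measure the spread between these libraries.

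The outermost layer of skin is sealed by lipids that keratinocytes make as they die. Elongases extend fatty acids to very long chains, and an omega-hydroxylase adds a hydroxyl group to them. A ceramide synthase then joins them to a sphingoid base, and the product is acylated to acylceramide. The transporter Abca12 loads these lipids, as glucosylceramides, into lamellar bodies, and enzymes outside the cell release ceramide again. Lipoxygenases oxidise the linoleate of acylceramide so that ceramide can be bound to the protein envelope, which transglutaminases crosslink. Inherited defects of many of these genes cause ichthyosis, a scaling disorder with a leaky skin barrier.

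Libraries held 28947715 to 41004173 counts. No gene of the keratinocyte, fibroblast, muscle, cartilage or bone marker lists was at 0 in all 14 libraries. Krt19, a keratin of simple epithelia, separated the genotypes on both days, with 48.9 to 92.2 CPM (counts scaled to an equal library total after TMM normalization, used for all levels here) in Krt9 null paws of P3 against 0.865 to 1.95 CPM in WT paws of that day. Krt9 was at 25.2, 7.74 and 11.5 CPM in Krt9 null paws of P3, against 32.9 to 83.0 CPM in WT paws, and did not separate the genotypes on P0. WT replicate 4 of P0, labelled female, had 0.181 CPM of Xist, while the other 6 libraries labelled female had 783 to 900.2 CPM. Its level of the Y-linked Ddx3y was also low, at 0.155 CPM. Libraries labelled male had 69.7 to 128.2 CPM of Ddx3y, and the others labelled female had at most 0.101 CPM. The Xist value goes against the label and the Ddx3y value does not, so these genes do not settle its sex. By name, the columns fall into 2 runs in alphabetical order, which cut across the groups, with 8 libraries in the first (block A) and 6 in the second (block B), and no source says that they are batches. Block B held Krt9 null replicates 1 and 3 and WT replicates 1 and 5 of P3, and Krt9 null replicate 2 and WT replicate 4 of P0.

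The barrier genes varied widely between libraries of 1 group, and most of them were high and low in the same libraries. Summed over the 35 genes, levels came to 14717, 5008 and 15673 CPM in Krt9 null paws of P3, in order of replicate, against 9434, 5098, 5483, 4499 and 7562 CPM in WT paws of that day. On P0 the sum was 7315 and 6372 CPM in Krt9 null paws, against 12138, 10625, 11361 and 5456 CPM in WT paws. Krt9 null replicates 1 and 3 were the highest libraries of P3, and WT replicate 4 was the lowest of P0. Within Krt9 null paws of P3 both block B libraries lay above the block A library in 33 of 35 genes, and within WT paws of P3 both block B libraries lay above all 3 of block A in 25 of 35. Within WT paws of P0 the order was the other way, with all 3 block A libraries above the block B library in 32 of 35 genes. In these bulk samples fewer keratinocytes and less RNA per keratinocyte cannot be told apart.

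**Figure D1:**
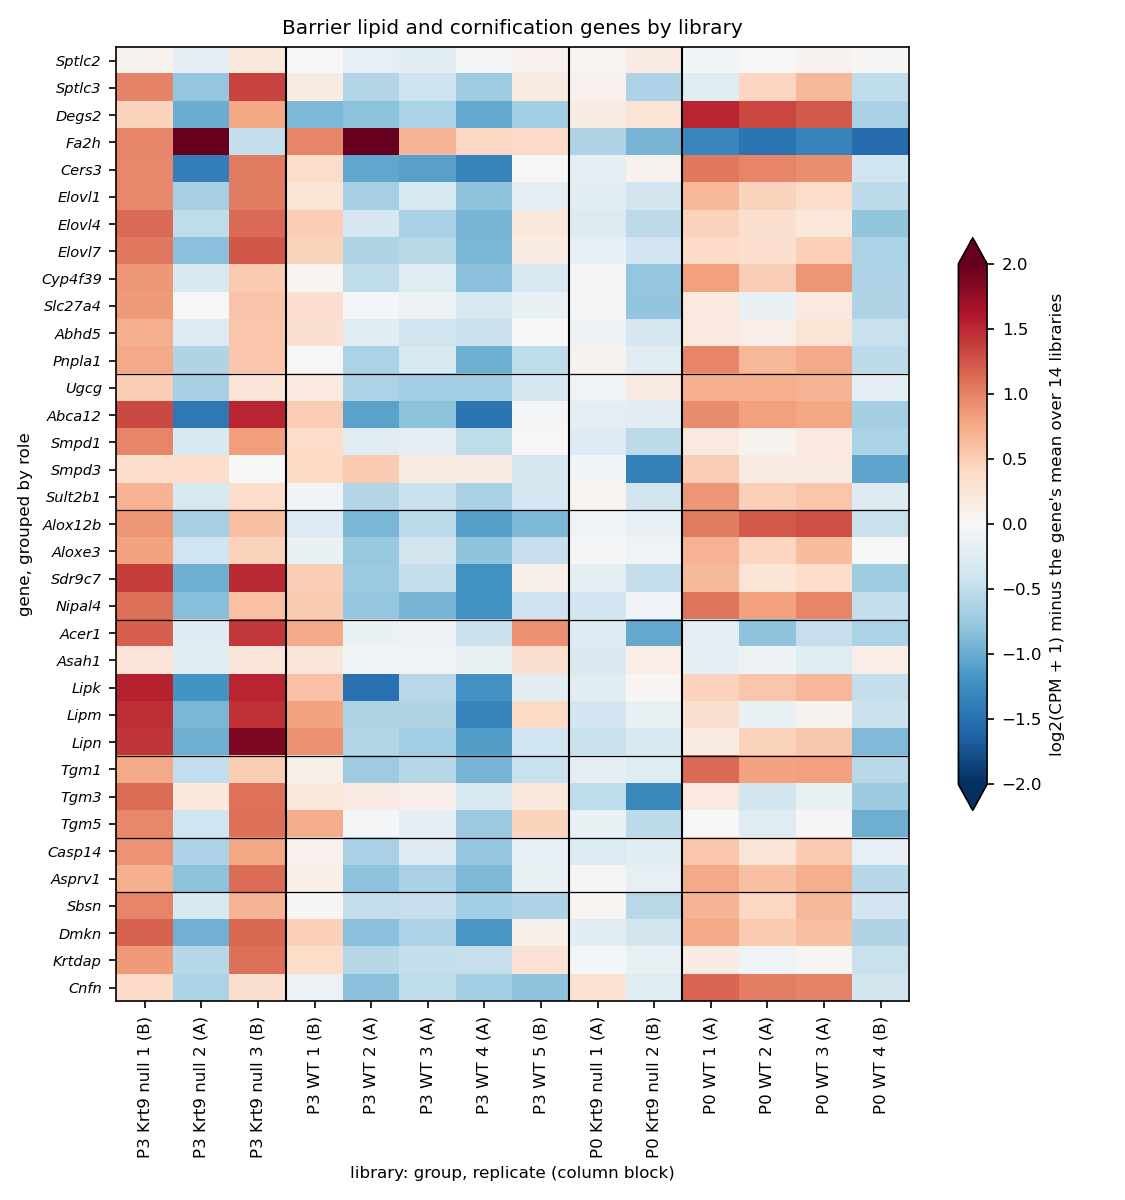
Level of each of the 35 barrier genes (rows, grouped by role) in each of the 14 libraries (columns, with the column block in brackets), as log2(CPM + 1) minus the gene's mean over the libraries. Krt9 null replicates 1 and 3 of P3 and WT replicates 1 to 3 of P0 are high in most rows, and Fa2h is above its mean in all P3 libraries except Krt9 null replicate 3 and below it in all P0 libraries.

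Per kilobase of exon, Krtdap, Asprv1 and Dmkn stood above the other 32 genes on P3. In Krt9 null paws of P3 the group mean was 2003 CPM per kb for Krtdap, 1875 for Asprv1 and 1201 for Dmkn, against 1204, 959 and 594 CPM per kb in WT paws of that day. Cnfn and Sbsn, also late keratinocyte proteins, were at 237 and 212 CPM per kb in Krt9 null paws and 149 and 109 CPM per kb in WT paws of P3. Among the lipid enzymes Elovl1 and Elovl4 led, at 177 and 165 CPM per kb in Krt9 null paws and 93.6 and 87.5 CPM per kb in WT paws of P3. Lipn was lowest in WT paws of P3, at 7.27 CPM per kb in Krt9 null paws and 2.47 CPM per kb in WT paws, beside Degs2 at 6.02 and 2.68 CPM per kb. In WT paws of P0 Fa2h was lowest, at 1.64 CPM per kb in Krt9 null paws and 0.929 CPM per kb in WT paws of that day.

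The first comparison was of the genotypes on P3. None of the 35 barrier genes passed edgeR's quasi-likelihood test at a Benjamini-Hochberg adjusted p under 0.05, and 1 of the 21619 genes tested did (0.00463%). Below, a gene is called if it passed this edgeR test, unless another tool or fit is named, and what edgeR did not call refers to this fit. Without the filter on low counts it called 31 of the 35 genes on P3 and 631 of 36822 in all. Fitted log2 fold changes of Krt9 null over WT paws ran from 0.02 for Asah1 to 1.75 for Lipn and were positive in 35 of 35 genes (34 with library size as the scaling), with a median of 0.94 against -0.01 over all genes tested. At an unadjusted p under 0.05, 26 of the 35 genes were higher in Krt9 null paws, against 4.6% of all genes, and none was lower, against 2.07%. DESeq2 called 3 of the 35 higher, namely Aloxe3, Tgm3 and Sbsn, and 24 of all genes higher. Krt9 null replicates 1 and 3 lay above all 5 WT paws in 31 of 35 genes, while replicate 2 lay within the WT range in 31 of 35. In all, 0 of 35 genes separated the groups without overlap, beside 1.3% of all genes separated with Krt9 null higher. Without Krt9 null replicate 2, edgeR called 9 of the 35 genes higher, with 159 of 21708 genes called higher in all, and the median was 1.18, and without replicate 3 it called 0 and the median was 0.61. In block A alone, with 1 Krt9 null and 3 WT libraries, the median was -0.03 with 15 genes positive and 20 negative, and in block B alone, with 2 of each, it was 0.86 with 33 positive and 2 negative. Means of log2(CPM + 1) over 16 basal and general keratinocyte markers moved the same way, at 8.59, 8.13 and 8.46 in Krt9 null paws against 8.20, 8.18, 8.27, 8.09 and 8.21 in WT paws. The sum of 8 differentiated keratinocyte markers was 36640, 12602 and 34118 CPM in Krt9 null paws against 20299, 12031, 15320, 11348 and 18386 CPM in WT paws, and their part in the result was not tested. With the mean of the 16 markers as a covariate the median difference of the barrier genes was 0.37.

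On P0 most fitted differences were negative and none was called. None of the 35 genes passed edgeR's test (0.00463% of all genes did), DESeq2 called 0, and 8 of 35 were lower in Krt9 null paws at an unadjusted p under 0.05, against 2.73% of all genes. These 8 were Cyp4f39, Smpd3, Sult2b1, Alox12b, Tgm1, Tgm3, Sbsn and Cnfn. The log2 fold change of Krt9 null over WT was negative in 32 of 35 genes (29 with library size as the scaling), with a median of -0.52 against -0.00392 over all genes. Krt9 null paws lay below all WT paws without overlap in Aloxe3 and Casp14 (4.82% of all genes did) and above them in Fa2h (6.47% did). WT replicate 4, the one WT library of block B on that day, was the lowest of its group in 32 of 35 genes. In block A alone, with 1 Krt9 null and 3 WT libraries, the median difference was -0.63, and in block B, with 1 library of each, it was 0.25 with 25 genes positive and 10 negative. Keratinocyte marker means were 8.51 and 8.14 in Krt9 null paws against 8.83, 8.70, 8.89 and 8.09 in WT paws, and with them as a covariate the median was 0.07.

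**Figure D2:**
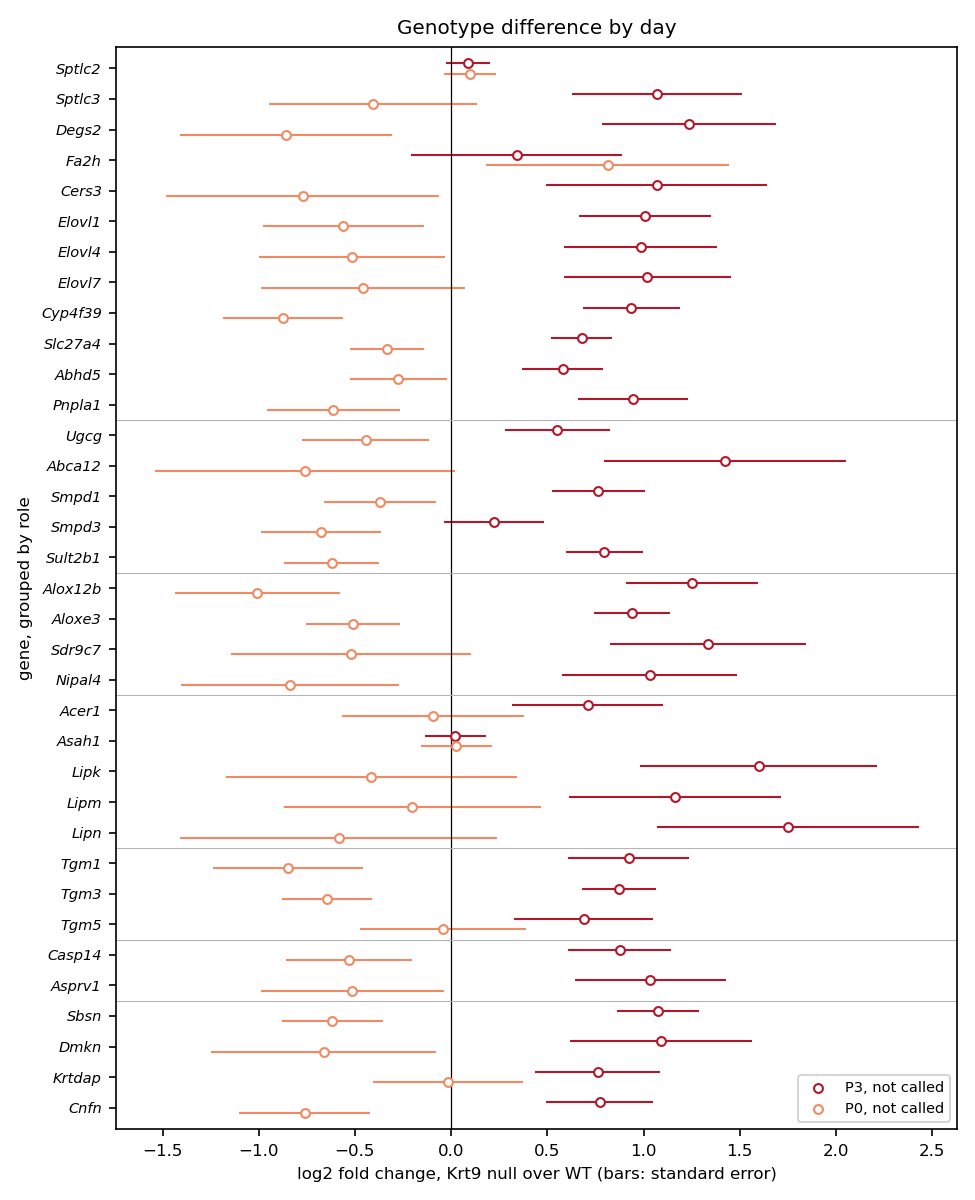
Log2 fold change of Krt9 null over WT paws for each barrier gene on P3 and P0, with bars of 1 standard error from edgeR. All 35 P3 values lie above 0 and 32 of 35 P0 values lie below 0, and edgeR called none on either day.

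The comparison of days within WT paws had the most calls. Of the 35 genes 10 were lower on P3 than on P0 and 1 was higher, while 16.6% of all genes tested were called, 8.07% lower and 8.49% higher. The lower genes were Degs2, Cyp4f39, Pnpla1, Ugcg, Sult2b1, Alox12b, Aloxe3, Tgm1, Sbsn and Cnfn, and the higher gene was Fa2h. The median log2 fold change was -0.62 (-0.49 with library size as the scaling) against -0.01 over all genes. Only Fa2h (higher, as in 8.96% of all genes) and Aloxe3 (lower, as in 7.73%) separated the days in WT paws without overlap among the 35 genes. In block A alone, with 3 libraries a day, the median was -1.09, and in block B, with 2 libraries of P3 and 1 of P0, it was 0.63. Degs2, Alox12b, Aloxe3 and Cnfn were negative in both blocks and Fa2h was positive in both, while the other 6 called genes were positive in block B. DESeq2 called 14 of the 35 genes, the 11 above and Nipal4, Casp14 and Asprv1, and 4696 of all genes. Without WT replicate 1, 2 or 3 of P0 edgeR called 7, 7 and 8 of the 35 genes, and without replicate 4 it called 13. Of all genes it called 1764, 1984, 1629 and 4108 in those 4 fits, in the same order. Keratinocyte marker means were 8.20, 8.18, 8.27, 8.09 and 8.21 in WT paws of P3 against 8.83, 8.70, 8.89 and 8.09 in WT paws of P0, and 7 of these 16 markers were called lower. The means of the differentiated keratinocyte markers were 7.85 to 9.05 in WT paws of P3 against 7.54 to 8.45 in WT paws of P0, their sums were 20299, 12031, 15320, 11348 and 18386 CPM against 27959, 22471, 25025 and 12269 CPM, and their part in the result was not tested. With the mean of the 16 markers as a covariate 0 of the 35 genes were called, the median was 0.25, and 3 genes were called of all 21619.

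Between days in Krt9 null paws most fitted differences were positive. Tgm3 and Slc27a4 were called, 2 of the 35 genes, both higher on P3 than on P0, while 0.768% of all genes were called, 0.338% higher and 0.43% lower. At an unadjusted p under 0.05, 12 of the 35 genes were higher, against 8.33% of all genes. Differences were positive in 34 of 35 genes (33 with library size as the scaling), with a median of 0.93. Fa2h, Slc27a4, Smpd3, Acer1 and Tgm3 were higher on P3 without overlap, as were 11.8% of all genes. DESeq2 called 6 of the 35, Tgm3, Slc27a4, Fa2h, Smpd1, Smpd3 and Acer1, and 1090 of all genes. In block A alone, with 1 library a day, the median was -0.43, and in block B, with 2 libraries of P3 and 1 of P0, it was 1.38. Without Krt9 null replicate 2 of P3 edgeR called 5 of the 35 genes and 645 of all genes. Without replicate 1 of P3 or replicate 2 of P0 it called 0 of the 35, and 2 and 0 of all genes. Without replicate 3 of P3 it called 1, with a median of 0.53, and 67 of all genes. It also called 1 without Krt9 null replicate 1 of P0, WT replicate 1 or 3 of P0, or WT replicate 2 or 4 of P3. Those fits called 78 to 176 of all genes. The mean of the keratinocyte markers was 8.59, 8.13 and 8.46 in Krt9 null paws of P3 against 8.51 and 8.14 in those of P0. With this mean as a covariate the median of the barrier genes was 0.65, and 2 of the 35 were called, with 125 of all genes. The sum of the 8 differentiated keratinocyte markers was 36640, 12602 and 34118 CPM in Krt9 null paws of P3 against 15572 and 8058 CPM in those of P0, and their log2 means were at least 8.08 on P3 and at most 7.87 on P0. Their part in the result was not tested.

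**Figure D3:**
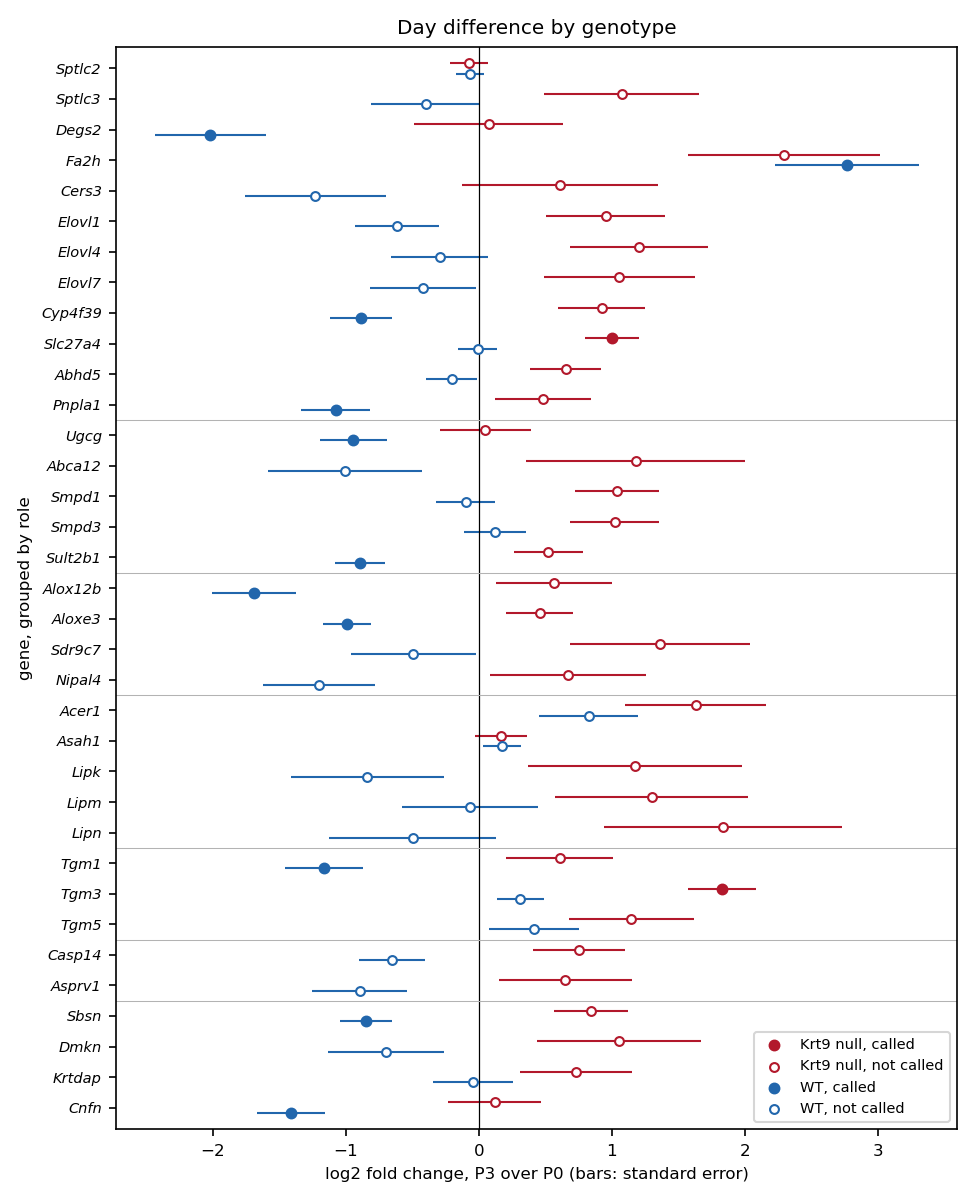
Log2 fold change of P3 over P0 for each barrier gene in Krt9 null paws and WT paws, with bars of 1 standard error from edgeR and filled marks for called genes. In WT paws 29 of 35 values lie below 0, and in Krt9 null paws 34 of 35 lie above 0.

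The genotype difference on P3 minus that on P0 tests whether the days differ. For the 35 genes it had a median of 1.5 on the log2 scale and was positive in 32, and 22 were above 0 at an unadjusted p under 0.05 (4.66% of all genes were). None passed edgeR's adjusted test, as 0% of all genes did, and the lowest adjusted p was 0.354 for Tgm3, Sbsn and Aloxe3. DESeq2 called 8 of the 35 (87 of all genes). Within block A the median was 0.65 and within block B it was 0.60, both below that of all libraries. Without Krt9 null replicate 2 of P3 edgeR called 4 of the 35 genes (13 of all genes), and without WT replicate 4 of P0 it called 3 (47 of all genes). The comparisons above share libraries, so their directions are not independent of each other.

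In ceramide synthesis 4 of 12 genes were called between days in WT paws, 3 lower and 1 higher, beside 8.07% lower and 8.49% higher of all genes. In Krt9 null paws 1 of the 12 was called, higher on P3, beside 0.338% of all genes called higher. Sptlc2, a subunit of serine palmitoyltransferase, which makes the first sphingoid precursor, averaged 75.9 ± 10.9 CPM in Krt9 null and 70.7 ± 6.10 CPM in WT paws of P3 (SD, n = 3 and 5). On P0 it averaged 79.5 ± 4.09 CPM in Krt9 null and 74.3 ± 2.86 CPM in WT paws (SD, n = 2 and 4). The related subunit Sptlc3 spread much more, with 75.5, 21.4 and 97.5 CPM in Krt9 null paws of P3 and 42.2, 24.5, 27.8, 22.5 and 42.5 CPM in WT paws. Neither Sptlc2 nor Sptlc3 was called by edgeR in any comparison. Degs2, which forms phytoceramide, was at 17.9, 6.01 and 22.7 CPM in Krt9 null paws of P3 and at 6.41, 6.83, 7.93, 5.85 and 7.54 CPM in WT paws of that day. On P0 Degs2 was at 14.4 and 15.7 CPM in Krt9 null and at 38.8, 34.1, 31.6 and 7.87 CPM in WT paws. All 5 WT paws of P3 held low Degs2, WT replicates 1 to 3 of P0 held the most, and WT replicate 4 of P0 fell within the P3 WT range. The WT day difference was -2.02 (SE 0.42, edgeR's adjusted p = 0.00878), at -2.31 for block A libraries and -0.17 for those of block B, and in Krt9 null paws it was 0.07 (SE 0.56).

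Fa2h, the fatty acid 2-hydroxylase of epidermal ceramides that also acts in sebaceous glands and in myelin, was the 1 member called higher on P3 in WT paws. It held 18.7, 41.8 and 6.21 CPM in Krt9 null and 18.8, 43.2, 15.03, 12.5 and 12.2 CPM in WT paws of P3. P0 paws held 5.60 and 4.28 CPM in Krt9 null and 3.08, 2.67, 2.97 and 2.46 CPM in WT paws. Every P3 library exceeded every P0 library in both genotypes, and within P3 the highest were Krt9 null replicate 2 and WT replicate 2. Fa2h rose 6.81-fold in WT paws on P3 relative to P0 (a log2 change of 2.77, SE 0.54, edgeR's adjusted p = 0.00709) and was 3.05 from block A alone and 2.66 from block B alone. The Krt9 null difference was 2.30 (SE 0.72, adjusted p = 0.160). Means of 8 hair follicle inner root sheath markers were 7.23, 6.83 and 4.90 in Krt9 null and 7.63, 7.19, 5.38, 5.49 and 6.34 in WT paws of P3, and 3.87 to 4.55 in Krt9 null and 2.90 to 4.16 in WT paws of P0. Means of 8 sebocyte markers were 3.34 to 3.48 in Krt9 null and 2.80 to 3.37 in WT paws of P3, and 2.58 to 2.76 and 2.52 to 2.92 in Krt9 null and WT paws of P0. Those of 8 myelinating Schwann cell markers were 4.98 to 5.71 in Krt9 null and 5.06 to 5.68 in WT paws of P3, and 4.64 to 5.02 and 4.65 to 4.96 in Krt9 null and WT paws of P0. None of these markers was at 0 in all 14 libraries. The part of these cell types in the Fa2h result was not tested.

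The elongases Elovl1, Elovl4 and Elovl7, which build the very long acyl chains, and the ceramide synthase Cers3 were not called by edgeR in any comparison. Elovl1 was at 612, 196 and 642 CPM in Krt9 null and at 376, 197, 249.7, 179 and 273 CPM in WT paws of P3. Values on P0 were 271 and 242 CPM in Krt9 null and 493, 424, 404 and 216 CPM in WT paws. Krt9 null replicates 1 and 3 of P3 stood highest of all 14 libraries and replicate 2 lay inside the WT range. The P3 genotype difference was 1.01 (SE 0.34, edgeR's adjusted p = 0.704). Elovl4 and Elovl7 had P3 differences of 0.98 and 1.02, and Cers3 one of 1.07 with a WT day difference of -1.23 (SE 0.53, adjusted p = 0.145).

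Cyp4f39 and Pnpla1, which act in acylceramide synthesis, were lower on P3 in WT paws. Cyp4f39, the omega-hydroxylase of very long fatty acids, held 58.95, 25.5 and 46.2 CPM in Krt9 null and 32.8, 22.3, 26.9, 17.4 and 25.4 CPM in WT paws of P3. On P0 it held 31.5 and 18.2 CPM in Krt9 null and 57.4, 45.3, 59.8 and 20.5 CPM in WT paws. WT replicates 1 to 3 of P0 were above every WT paw of P3, while WT replicate 4 of P0 was below 4 of them. It was lower on P3 in WT paws at -0.89 (SE 0.23, edgeR's adjusted p = 0.0207), but at 0.51 in block B alone, and the call was lost without WT replicate 1, 2 or 3 of P0 or without the sex term, with adjusted p up to 0.0838 among the left-out libraries.

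Pnpla1, the transacylase that forms acylceramide, was at 62.8, 23.9 and 54.2 CPM in Krt9 null and 36.5, 23.4, 29.5, 18.2 and 25.5 CPM in WT paws of P3, and at 38.5 and 31.5 CPM in Krt9 null and 73.2, 58.7, 62.8 and 25.3 CPM in WT paws of P0. Again WT replicate 4 of P0 lay within the WT range of P3 and the other 3 lay above it. The WT day difference was -1.08 (SE 0.26, edgeR's adjusted p = 0.0157), 0.30 in block B alone, and the call was lost without WT replicate 1 or 2 of P0 (adjusted p up to 0.0592). Abhd5, the cofactor of Pnpla1, was not called by edgeR in any comparison, with a WT day difference of -0.20 and a P3 genotype difference of 0.58 (SE 0.21).

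Slc27a4, a transporter and acyl-CoA synthetase of very long fatty acids, was called by edgeR between days in Krt9 null paws. It held 173, 95.9 and 142 CPM in Krt9 null and 121, 93.5, 87.1, 75.5 and 86.1 CPM in WT paws of P3. P0 paws held 91.8 and 54.7 CPM in Krt9 null and 109, 86.1, 109 and 61.9 CPM in WT paws. The Krt9 null libraries of the 2 days did not overlap, whereas the WT libraries did. The difference of P3 and P0 was 1.00 in Krt9 null paws (SE 0.21, edgeR's adjusted p = 0.0398) and -0.01 in WT paws (SE 0.15), and the test of their difference had an adjusted p of 0.422 by edgeR, while DESeq2 called it. The Krt9 null value was 0.11 from block A libraries and 1.52 from those of block B. The Krt9 null call was kept in 6 of 14 fits that leave out 1 library, and was lost without either Krt9 null paw of P0, replicate 1 or 3 of the Krt9 null paws of P3, or WT replicate 1 or 3 of P0 or 2 or 4 of P3, with adjusted p up to 0.578. It was also lost without the sex term, with the column block as a term within each day (adjusted p = 0.0918 by edgeR) and when only Krt9 null libraries were fitted.

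Among genes of packaging and export, Ugcg and Sult2b1 were called. Ugcg, the glucosylceramide synthase, held 114, 50.4 and 97.1 CPM in Krt9 null and 93.1, 52.05, 50.2, 50.2 and 62.98 CPM in WT paws of P3, and 77.00 and 91.99 CPM in Krt9 null and 133, 135, 129 and 70.97 CPM in WT paws of P0. WT replicates 1 to 3 of P0 were close together and above all other libraries. In WT paws Ugcg fell by 0.94 on the log2 scale on P3 relative to P0 (SE 0.25, edgeR's adjusted p = 0.0234), with 0.14 in block B alone, and the call was lost without WT replicate 1, 2 or 3 of P0 or 2 or 4 of P3 (adjusted p up to 0.0826). Sult2b1, which makes cholesterol sulfate, a regulator of desquamation, was at 98.1, 48.7 and 77.9 CPM in Krt9 null and 58.04, 39.8, 43.9, 38.1 and 47.7 CPM in WT paws of P3. Values on P0 were 61.99 and 46.3 CPM in Krt9 null and 112, 84.7, 88.7 and 50.2 CPM in WT paws. Its WT day difference was -0.89 (SE 0.19, edgeR's adjusted p = 0.00644) and held without any 1 library, but was 0.08 in block B alone, where WT replicate 4 of P0 lay between the P3 paws.

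Abca12, the lamellar body transporter, was not called by edgeR in any comparison. It was at 302, 44.2 and 348 CPM in Krt9 null and 172, 56.5, 67.8, 42.98 and 119 CPM in WT paws of P3, and at 104 and 104 CPM in Krt9 null and 232, 213, 207 and 74.5 CPM in WT paws of P0. Within Krt9 null paws of P3 replicate 2 was far below the others and next to the lowest WT paw. The P3 genotype difference of 1.42 (SE 0.63) had an adjusted p of 0.745 by edgeR, and was -0.33 from block A libraries alone, against 1.17 from those of block B. The sphingomyelinases Smpd1 and Smpd3, which release ceramide from sphingomyelin, were called by DESeq2 but not by edgeR between days in Krt9 null paws, and had P3 genotype differences of 0.77 and 0.22. Smpd3 also acts in bone. Means of 7 osteoblast markers were 4.93 to 6.66 in Krt9 null and 6.01 to 6.98 in WT paws of P3, and their part in the Smpd3 values was not tested.

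Both lipoxygenases were lower on P3 in WT paws. Alox12b starts the oxidation of acylceramide linoleate and Aloxe3 turns its product into an epoxyalcohol. Alox12b held 188, 63.7 and 155 CPM in Krt9 null and 84.1, 52.96, 69.4, 46.8 and 53.5 CPM in WT paws of P3. On P0 it held 96.2 and 90.3 CPM in Krt9 null and 209.8, 238, 249 and 74.02 CPM in WT paws. WT replicates 1 to 3 of P0 had more than any other library and WT replicate 4 of P0 was inside the WT range of P3. In WT paws Alox12b fell to 0.310 of its P0 level on P3 (a log2 change of -1.69, SE 0.32, edgeR's adjusted p = 0.00539), which was -2.01 in the block A libraries and, in those of block B, -0.10.

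Aloxe3 was at 113, 48.4 and 88.5 CPM in Krt9 null and 58.4, 37.3, 49.3, 36.1 and 46.5 CPM in WT paws of P3. P0 paws held 62.3 and 60.6 CPM in Krt9 null and 105, 86.99, 99.8 and 64.7 CPM in WT paws. All WT paws of P3 lay below all WT paws of P0, and both Krt9 null paws of P0 lay between. The WT day difference was -0.99 (SE 0.18, edgeR's adjusted p = 0.00348), with -1.22 for block A libraries and -0.30 for those of block B. On P3 the genotype difference of Aloxe3 was 0.94 (SE 0.20, edgeR's adjusted p = 0.427), at 0.25 in block A and 0.95 in block B. Both lipoxygenase calls between days in WT paws held in all 14 fits that leave out 1 library. Sdr9c7, a dehydrogenase of the oxidised lipid, and Nipal4, a membrane protein mutated in ichthyosis, were not called by edgeR, although DESeq2 called Nipal4 between days in WT paws, with P3 genotype differences of 1.33 and 1.03 and WT day differences of -0.49 and -1.20.

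Ceramidases and the acid lipase family had no edgeR call in any comparison. Asah1, the lysosomal acid ceramidase of most cell types, hardly varied, with 141, 102 and 140.1 CPM in Krt9 null and 139, 112, 111, 107 and 148 CPM in WT paws of P3. Values on P0 were 96.1 and 129.9 CPM in Krt9 null and 103, 110.1, 99.6 and 129.7 CPM in WT paws. All groups overlapped, and the P3 genotype difference was 0.02 (SE 0.16). Acer1, the alkaline ceramidase of epidermis, had positive day differences in both genotypes, 1.63 in Krt9 null (SE 0.53, edgeR's adjusted p = 0.168) and 0.83 in WT paws (SE 0.37, adjusted p = 0.155), and DESeq2 called it in Krt9 null paws. Lipk, Lipn and Lipm, neighbouring genes on chromosome 19, encode lipases of the acid lipase family. Lipn held 16.3, 2.27 and 22.5 CPM in Krt9 null and 11.1, 3.25, 3.01, 1.96 and 3.86 CPM in WT paws of P3, and its difference of 1.75 had an SE of 0.68 and an adjusted p of 0.721 by edgeR. The P3 genotype differences of Lipk and Lipm were 1.60 (SE 0.62) and 1.16 (SE 0.55).

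Of 3 transglutaminases, which crosslink envelope proteins, Tgm1 was called between days in WT paws and Tgm3 in Krt9 null paws. Tgm1, the membrane-bound enzyme, held 172, 72.4 and 146 CPM in Krt9 null and 110.4, 62.1, 68.1, 52.8 and 74.7 CPM in WT paws of P3, and 88.9 and 85.7 CPM in Krt9 null and 224, 179, 181 and 68.9 CPM in WT paws of P0. WT replicates 1 to 3 of P0 were again the highest and WT replicate 4 of P0 lay with the P3 WT paws. The WT day difference was -1.16 (SE 0.29, edgeR's adjusted p = 0.0186), 0.43 in block B alone, and was lost without WT replicate 1, 2 or 3 of P0 (adjusted p up to 0.0694). Tgm3, a cytosolic enzyme of epidermis and hair follicle, held 231, 122 and 224 CPM in Krt9 null and 124, 119, 114, 85.6 and 122 CPM in WT paws of P3. On P0 it held 74.1 and 42.4 CPM in Krt9 null and 120.4, 81.2, 95.6 and 63.1 CPM in WT paws. Each Krt9 null paw of P3 was above both Krt9 null paws of P0, and replicate 2 of P3 lay inside the WT range of its day. In Krt9 null paws Tgm3 rose 3.55-fold on P3 relative to P0 (a log2 change of 1.83, SE 0.26, edgeR's adjusted p = 0.0133), with 0.76 from block A alone and 2.43 from block B alone. The call was lost without Krt9 null replicate 2 of P0 or replicate 1 of P3 (adjusted p up to 0.394) and when only Krt9 null libraries were fitted. In WT paws the day difference of Tgm3 was 0.31 (SE 0.18, adjusted p = 0.255), and the test between the genotypes had an adjusted p of 0.354. Tgm5 was not called by edgeR, with 1.14 in Krt9 null and 0.41 in WT paws between days.

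**Figure D4:**
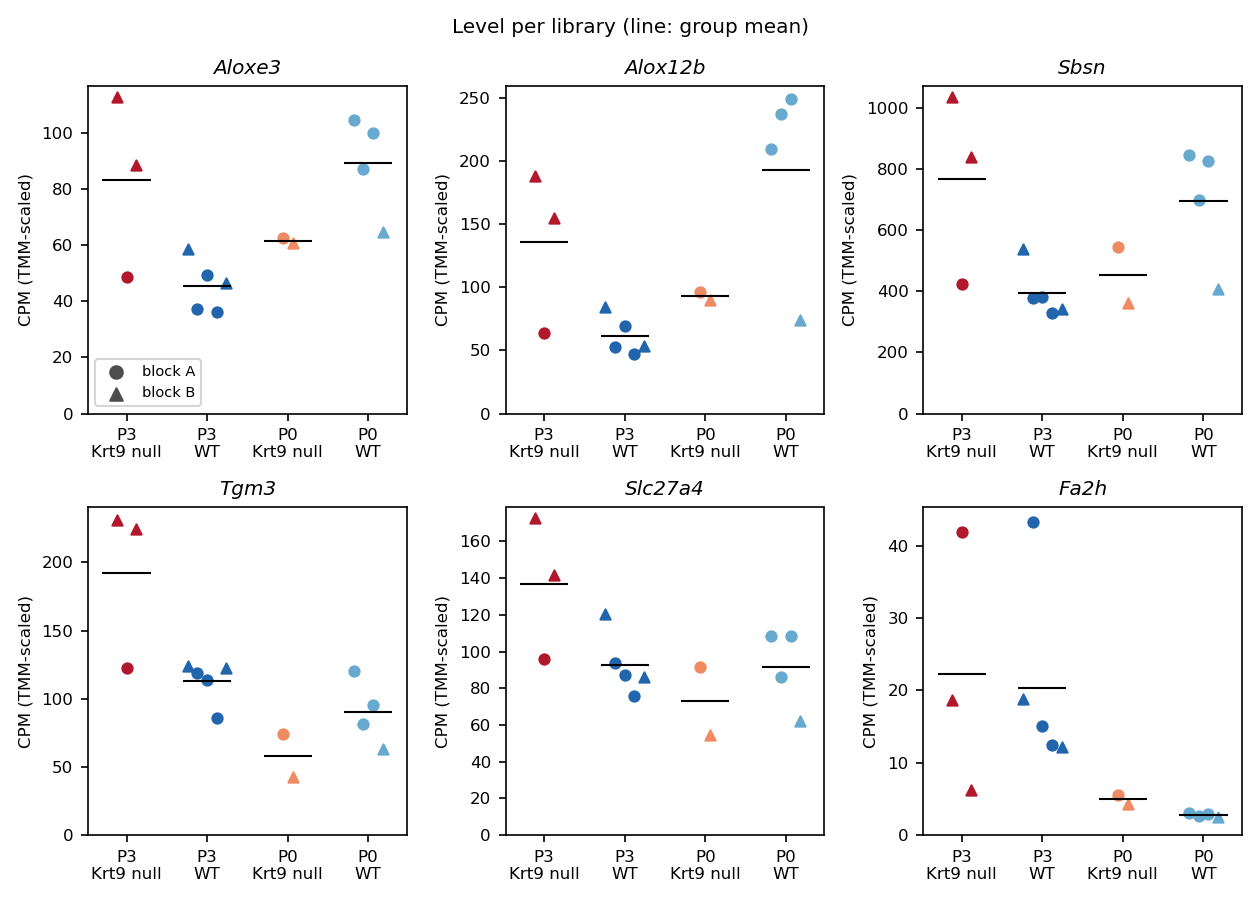
Level of 6 barrier genes in each library by group, in CPM after TMM scaling, with a line at the group mean, circles for block A and triangles for block B. Krt9 null replicates 1 and 3 of P3 (triangles) lie above replicate 2 in 5 of the 6 panels, and Fa2h is the exception.

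Ratios within a library are not changed by its scaling, and 12 pairs of related members were compared by ratio, a choice made after the values had been seen. The Tgm3 to Tgm1 ratio, as log2 of CPM per kb, was 0.26 ± 0.29 in WT paws of P3 against -1.16 ± 0.44 in WT paws of P0 (SD, n = 5 and 4). The 2 days did not overlap, the difference was 1.42, and it was 1.78 within block A and 0.57 within block B. A two-sided exact permutation test gave p = 0.0159, the smallest that 5 against 4 libraries can give, and 0.0952 after Benjamini-Hochberg adjustment over the 12 pairs. In Krt9 null paws the ratio was 0.21 ± 0.17 on P3 against -1.03 ± 0.53 on P0 (SD, n = 3 and 2), again without overlap, with exact p = 0.2, the smallest possible there. Elovl4 to Elovl1, Elovl7 to Elovl4, Lipm to Lipk, Lipn to Lipk, Tgm5 to Tgm1 and Tgm5 to Tgm3 also had no overlap between days there. Each had the same exact permutation p of 0.2 and, like Tgm3 to Tgm1, 0.343 after adjustment. Several of these pairs share a gene, so they are not independent of each other. Tgm5 to Tgm3 differed by -0.79 in Krt9 null paws and by 0.04 in WT paws. Tgm5 to Tgm1 differed likewise in WT paws, by 1.46, at 1.43 from block A libraries and 1.30 from those of block B. Its exact permutation p was 0.0159, and 0.0952 after adjustment. Both ratios share Tgm1, which was itself called lower on P3 in WT paws, so they are not independent results. Between genotypes none of the 12 ratios separated the groups on P3, and the Tgm3 to Tgm1 ratio differed by -0.05. On P0 Tgm5 to Tgm1 and Tgm5 to Tgm3 were higher in Krt9 null paws without overlap, by 0.77 and 0.63, with exact permutation p = 0.133 each, the smallest possible there, and 0.711 after adjustment. The Tgm3 to Tgm1 ratio differed by 0.13 on P0, at 0.72 for block A and -0.89 for block B. As given above, the inner root sheath markers, of hair follicle cells that also use Tgm3, were higher on P3. In WT paws 7 of 8 were called, beside 8.49% of all genes called higher on P3, and their part in the ratio was not tested.

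**Figure D5:**
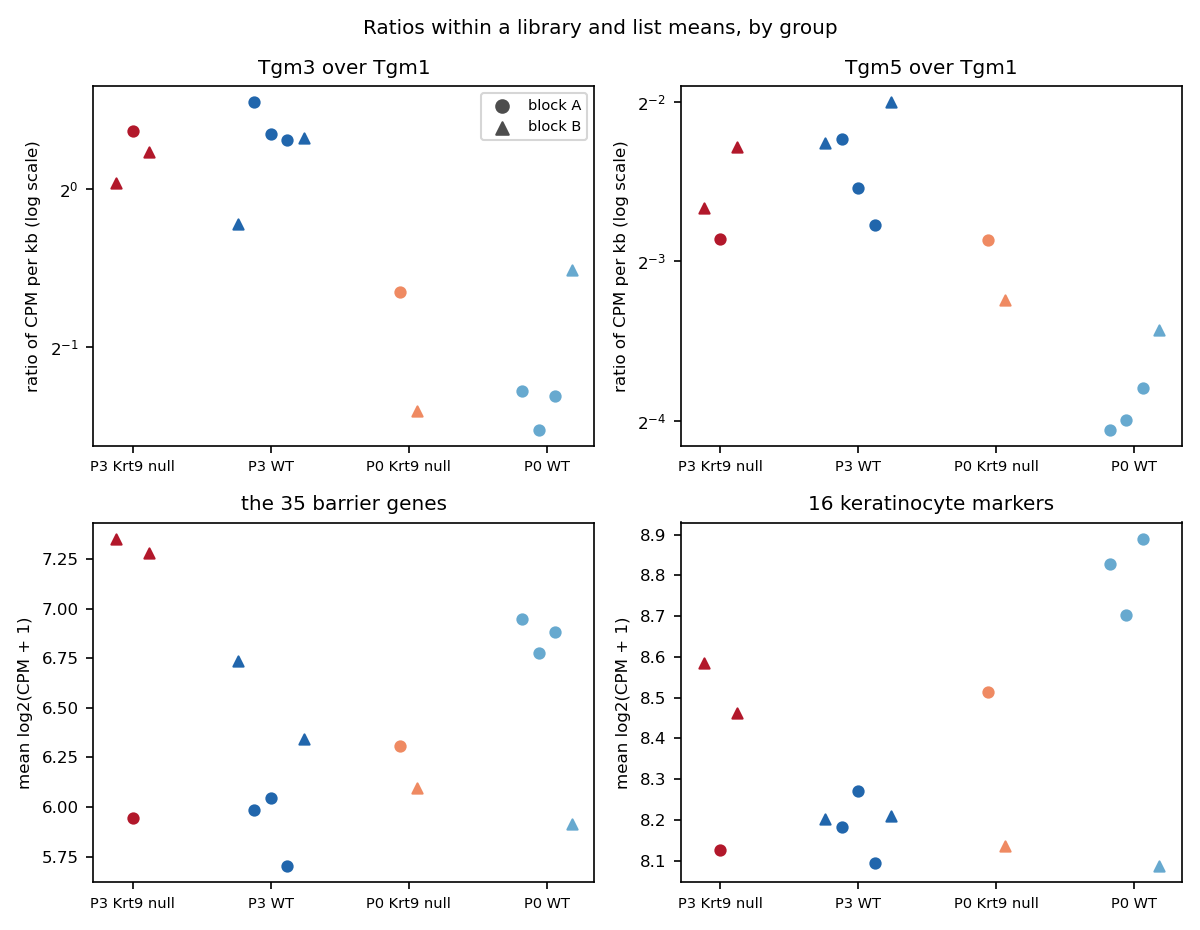
The ratio of Tgm3 or Tgm5 to Tgm1 in each library (CPM per kb, log axis), and the mean log2(CPM + 1) of the 35 barrier genes and of 16 keratinocyte markers, with circles for block A and triangles for block B. The ratios separate P3 from P0 in WT paws without overlap, whereas both list means are low in the P0 WT library of block B.

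Of the proteases, Asprv1, an aspartic protease that processes profilaggrin, had the highest mean CPM of the set over the 14 libraries. It held 3262, 1125 and 4314 CPM in Krt9 null and 2155, 1128, 1270, 1072 and 1794 CPM in WT paws of P3. P0 paws held 2028 and 1781 CPM in Krt9 null and 3372, 3034, 3279 and 1348 CPM in WT paws. Krt9 null replicate 2 of P3 was close to the lowest WT paws while replicates 1 and 3 were above them all. The P3 genotype difference was 1.04 (SE 0.39, edgeR's adjusted p = 0.706). Casp14, a caspase that acts in filaggrin breakdown, was not called by edgeR, and DESeq2 called it and Asprv1 lower on P3 in WT paws. On P0 both Krt9 null paws, at 223 and 231 CPM, lay below all WT paws of that day, at 393, 321, 386 and 240.3 CPM. Its P0 difference was -0.53 (SE 0.33, edgeR's adjusted p = 0.857).

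The secreted proteins suprabasin (Sbsn), dermokine (Dmkn) and Krtdap are encoded next to each other on chromosome 7, with no other coding gene between them. Their promoters are shown because these neighbours each hold an AP-1 match, and that of Tgm3 because it rose in Krt9 null paws. Each is 250 bases before to 50 after the RefSeq start on GRCm38.p6, plus strand, with capitals on matches to AP-1 (TGANTCA), C/EBP (TTGCNNAA) and the TATA box (TATAAA) on either strand. For Dmkn, which has several starts in the table, the first is shown.
Sbsn, chr7:30751221-30751520: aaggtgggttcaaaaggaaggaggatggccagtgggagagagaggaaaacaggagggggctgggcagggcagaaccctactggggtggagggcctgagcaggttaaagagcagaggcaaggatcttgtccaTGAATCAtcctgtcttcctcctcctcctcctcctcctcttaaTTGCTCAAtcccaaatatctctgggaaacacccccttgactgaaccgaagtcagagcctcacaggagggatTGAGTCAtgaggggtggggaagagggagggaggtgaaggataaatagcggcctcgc
Dmkn, chr7:30763506-30763805: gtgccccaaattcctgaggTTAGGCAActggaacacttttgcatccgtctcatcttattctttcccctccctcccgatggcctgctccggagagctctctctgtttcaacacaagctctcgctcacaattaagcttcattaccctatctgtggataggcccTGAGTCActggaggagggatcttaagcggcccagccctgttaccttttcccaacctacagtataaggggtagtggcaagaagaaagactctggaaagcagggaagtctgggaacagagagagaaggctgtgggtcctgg
Krtdap, chr7:30787655-30787954: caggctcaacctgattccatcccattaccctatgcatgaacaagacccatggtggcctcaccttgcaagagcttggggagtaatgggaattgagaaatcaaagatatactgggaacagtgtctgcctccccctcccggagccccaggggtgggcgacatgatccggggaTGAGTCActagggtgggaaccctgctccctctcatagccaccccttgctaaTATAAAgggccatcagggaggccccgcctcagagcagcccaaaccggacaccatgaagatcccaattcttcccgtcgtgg
Tgm3, chr2:130012090-130012389: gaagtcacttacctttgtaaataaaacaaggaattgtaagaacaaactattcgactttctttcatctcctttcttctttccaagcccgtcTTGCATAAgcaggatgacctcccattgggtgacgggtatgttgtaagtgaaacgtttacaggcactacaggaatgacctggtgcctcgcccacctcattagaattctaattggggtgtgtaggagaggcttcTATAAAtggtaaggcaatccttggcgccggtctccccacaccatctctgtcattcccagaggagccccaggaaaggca
AP-1 matches start 119 and 6 bases before the Sbsn start, 89 before that of Dmkn and 81 before that of Krtdap, and the TATA matches 30 before the Krtdap start and 28 before that of Tgm3. Of the 30 members with a promoter in the RefSeq table, 5 held an AP-1 match (16.7%, against 8.97% of all genes), namely Dmkn, Krtdap, Lipn, Sbsn and Sult2b1. C/EBP matches were in 7 (23.3%, against 12.2%), the GC box GGGCGG in 14 (46.7%, against 38.2%), the TATA box in 3 (10%, against 15.7%) and the grainyhead-like AACNGGTT in 1, Tgm5 (3.33%, against 2.35%). These are letter matches, not sites shown to be used.

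Sbsn held 1037, 425 and 841 CPM in Krt9 null and 538, 379, 381, 329 and 343 CPM in WT paws of P3. Values on P0 were 546 and 360.3 CPM in Krt9 null and 847, 700.1, 825 and 406 CPM in WT paws. On P3 replicates 1 and 3 of the Krt9 null paws were above all WT paws and replicate 2 was below WT replicate 1 alone. The P3 genotype difference of 1.08 (SE 0.21, edgeR's adjusted p = 0.361) had the smallest p of the 35 genes, with 0.24 in block A and 1.10 in block B. Between days in WT paws Sbsn fell by 0.85 on the log2 scale (SE 0.20, edgeR's adjusted p = 0.0109), but was 0.12 in block B alone. Dmkn was at 3570, 809 and 3518 CPM in Krt9 null and 2197, 883, 1015, 708 and 1704 CPM in WT paws of P3. On P0 it was at 1360 and 1227 CPM in Krt9 null and 2662, 2265, 2412 and 1038 CPM in WT paws. Neither Dmkn nor Krtdap was called by edgeR, with P3 genotype differences of 1.09 (SE 0.47) and 0.76 (SE 0.33).

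Cnfn, cornifelin of the cornified envelope, held 208, 103 and 199 CPM in Krt9 null and 147, 88.5, 111, 98.99 and 90.8 CPM in WT paws of P3. P0 paws held 196 and 135 CPM in Krt9 null and 359, 325, 319.6 and 123 CPM in WT paws. WT replicates 1 to 3 of P0 were well above every other library, and WT replicate 4 of P0 was within the WT range of P3. In WT paws it was at 0.376 of the P0 level on P3 (a log2 change of -1.41, SE 0.26, edgeR's adjusted p = 0.00381), which was -1.72 in the block A libraries and, in those of block B, -0.05, and the call held without any 1 library.

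Exons of 10 of the 35 genes share bases with another gene in GENCODE M21. For Sbsn the other gene, Tmem147os, lies on the same strand, so strand cannot tell reads there apart. In the rest the overlap is on the opposite strand. Since the strand setting of the counting is not given, it is not known whether reads there were told apart. The share of exon bases was 34.9% for Lipm (with Ankrd22), 16% for Abhd5, 14.1% for Acer1, 13.3% for Pnpla1 and 10.8% for Degs2 (with Evl). It was below 10% for Sult2b1, Sbsn, Tgm1, Smpd3 and Elovl1.

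Other genes of these pathways were counted from lists chosen with earlier results known. Between days in WT paws, 4 of 31 other sphingolipid genes tested were higher and 4 lower on P3, beside 8.49% higher and 8.07% lower of all genes. The sphingomyelin synthase Sgms1 was lower at -0.75 (SE 0.13, edgeR's adjusted p = 0.00230) and the sphingosine kinase Sphk1 was lower at -0.87 (SE 0.21, edgeR's adjusted p = 0.0131). Of 27 other fatty acid and acyl lipid genes 10 were higher and 2 lower, among them the elongase Elovl6, higher at 1.17 (SE 0.16, edgeR's adjusted p = 0.000682), and the triglyceride lipase Pnpla2, lower at -0.67 (SE 0.18, edgeR's adjusted p = 0.0222). Of 14 other lipoxygenase and epoxide genes 3 were higher, namely Alox12e at 1.86 (SE 0.20, edgeR's adjusted p = 0.000332), Alox5 at 1.55 (SE 0.24, edgeR's adjusted p = 0.00153) and Alox5ap, the last named after its value was seen. Of 5 other transglutaminases F13a1 and Tgm6 were higher, and of 15 other cornification proteases and inhibitors tested St14 was, all 3 named after their values were seen. Alox5, Alox5ap and F13a1 are also expressed by macrophages, and means of 9 macrophage markers, 7 of them called higher in WT paws, were 6.12 to 6.43 in WT paws of P3 against 5.21 to 5.85 in WT paws of P0. In Krt9 null paws they were 6.12 to 6.31 on P3 against 5.58 to 5.59 on P0, and their part in these results was not tested. In Krt9 null paws the called genes of these lists were higher on P3, namely Elovl6 at 1.48 (SE 0.22, edgeR's adjusted p = 0.0133), Alox12e at 1.97 (SE 0.28, edgeR's adjusted p = 0.0133) and Alox5 at 1.80 (SE 0.34, edgeR's adjusted p = 0.0307). Between genotypes edgeR called none of the list genes on either day. At an unadjusted p under 0.05 on P3, 7 of 31 sphingolipid, 7 of 27 fatty acid, 5 of 14 lipoxygenase and 7 of 15 protease genes were higher in Krt9 null paws, beside 4.6% of all genes.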

How the data were processed

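Total RNA of whole paws was depleted of ribosomal RNA and sequenced in 14 libraries. The deposited values are raw counts per gene. Per the submitters' processing notes, STAR 2.7.10a, featureCounts, edgeR and limma were used with GRCm39. For the strand setting and annotation version, no value is given in the sources used. Deposited counts totalled 28947715 to 41004173 per library, and rows without a symbol held 0.623% of them.

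The counts were fitted with edgeR 4.0.16 (quasi-likelihood, robust, TMM scaling, filterByExpr), with 4 groups, sex as labelled as a covariate and all 14 libraries. WT replicate 4 of P0 was entered as female, a label that its low Xist goes against and its low Ddx3y does not. The fit left 9 residual degrees of freedom and 21619 genes. Adjusted p-values are Benjamini-Hochberg over these genes, called under 0.05. DESeq2 1.42.0 and limma 3.58.1 served as alternatives, and the fit was tested on simulated data. Lengths came from GENCODE M21 exons and promoters from RefSeq GRCm38.p6. Litter labels do not pair the genotypes, apart from litter 1 of P0, and replicate numbers follow accession order. WT replicates 2 and 3 of P3 share the label of litter 2. The main fit, the SDs and the exact permutation tests treat them as separate libraries. Column blocks were read from the deposited column names. The members, the lists and the rule for named genes (all members, libraries' values for called ones and for the highest of each role, up to 3 called pathway genes per comparison and direction) were chosen with earlier results of these data known.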

Additional observations from a re-analysis of the deposited data

Results flagged for a closer look

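Of 70 groups of 4 or 5 libraries examined (35 genes in WT paws of each day), 10 held a library standing far from the rest. By chance the rule flags about 1 in 20 single groups. Most of these genes moved together between libraries, so the 70 groups are not independent and the count cannot be set against that rate. WT replicate 4 of P0 was the lowest of its group for 6 genes, at 44.3 CPM for Cers3, 65.2 CPM for Elovl7, 70.97 CPM for Ugcg, 74.5 CPM for Abca12, 1348 CPM for Asprv1 and 123 CPM for Cnfn. WT replicate 2 of P3 was the highest of its group for Fa2h, at 43.2 CPM. WT replicate 1 of P3 was the highest for Lipn, at 11.1 CPM, and for Sbsn, at 538 CPM. WT replicate 4 of P3 was the lowest for Tgm3, at 85.6 CPM.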

How the results depend on the processing

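Counts of called genes among the 35 depended on the filter, the tool, the covariates and single libraries, and the cause was not tested. With no filter on low counts, edgeR called 31 genes between genotypes on P3, 7 on P0, 22 between days in WT paws, 26 in Krt9 null paws and 28 for the difference between the days, with 631, 182, 4203, 1692 and 617 of 36822 genes called in all in the same order. DESeq2 called 3 on P3, 6 between days in Krt9 null paws and 8 for the difference between the days. Of all genes it called 26, 1090 and 87 in that order. With the column block as a term within each day, chosen after seeing the data, 5 genes were called on P3 and 6 for the difference. Between days 29 were called in WT and 1 in Krt9 null paws. Of all 21619 genes, 39 were called on P3, 6027 and 98 between days in WT and in Krt9 null paws, and 44 for the difference. The day medians were -1.16 in WT and -0.22 in Krt9 null paws, and that of the difference was 0.98. Between days in Krt9 null paws 1 gene was called without the sex term (41 of all genes) and 0 with only those libraries (1 of all genes). With the keratinocyte score as a covariate the medians were 0.37 on P3, 0.069 on P0 and 0.31 for the difference. Between days they were 0.25 in WT paws, where 0 genes were called (3 of all genes). In Krt9 null paws the median was 0.65 and 2 genes were called (125 of all genes). Within block A the medians were -0.033 on P3, -0.43 between days in Krt9 null paws and 0.65 for the difference, and within block B 0.25 on P0, 0.63 between days in WT paws and 0.60 for the difference. Between days in WT paws, block B alone turned the direction of Cyp4f39 (0.51), Pnpla1 (0.30), Ugcg (0.14), Sult2b1 (0.078), Tgm1 (0.43) and Sbsn (0.12), and the keratinocyte score that of Cyp4f39 (0.033). Leaving out 1 library at a time gave 0 to 9 called genes on P3, 0 to 0 on P0, 7 to 13 between days in WT and 0 to 5 in Krt9 null paws and 0 to 4 for the difference, with medians of 0.61 to 1.18, -0.71 to -0.36, -0.77 to -0.44, 0.53 to 1.08 and 1.15 to 1.82. Among all genes these fits called 1 to 200, 1 to 3, 1629 to 4332, 0 to 645 and 0 to 47. The litter as a replicate block (consensus correlation 0.555) gave 0, 0, 11, 2 and 0 called genes, with medians of 0.86, -0.58, -0.60, 0.81 and 1.44, in the same order. Of all genes that fit called 1, 2, 2991, 132 and 3. Depth limits precision at low levels, and Lipn was the lowest member, at 1.96 CPM in WT replicate 4 of P3. The litter block changed none of the counts of calls among the 35 genes. Within a day only litter 1 of P0 and litter 2 of P3 held more than 1 library, so that fit cannot show whether litter matters.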
